A study of Mus musculus with 6 samples.

Results

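Phospholipase A2 enzymes outside the Paneth cell granule were examined through 7 genes: Pla2g4c, Pla2g4a, Pla2g6, Pla2g10, Pla2g12a, Pla2g12b and Pla2g15. They were taken by gene symbol, which gave 11 probe sets (groups of short probes that together measure a transcript) among 34945 paired with 1 gene, and 7 of 18193 genes. RNA came from intestinal epithelial cells of C57BL/6 mice, with 3 arrays from floxed control animals and 3 from caspase-8 deficient animals. Both groups carried the casp8 flox allele. The deficient animals were villinCre positive, so that Cre recombinase under the villin promoter, active in gut epithelium, cuts the floxed gene, and the controls were villinCre negative. The presence of Cre and the loss of caspase-8 therefore cannot be told apart, and age, sex and gut segment are not given in the labels. Caspase-8 starts apoptosis from death receptors and restrains necroptosis, and the comparison asks how its loss alters epithelial gene expression.

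Phospholipases A2 release the fatty acid from the middle position of a membrane phospholipid, leaving a lysophospholipid. When that fatty acid is arachidonic acid, cyclooxygenases and lipoxygenases turn it into prostaglandins and leukotrienes, which act on neighbouring cells through their own receptors. The family holds cytosolic enzymes of group IV, the calcium-independent Pla2g6, small secreted enzymes such as Pla2g10 and the group XII proteins, and the lysosomal Pla2g15. In the small intestine the best known secreted member, Pla2g2a, is stored in Paneth cell granules.

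Values are log2 expression, so that a difference of 1 is a doubling. Pla2g4c was selected on its difference between these same groups, so the differences of the 7 genes are given as a description without a test. Of the 7 genes, 1 passed an adjusted p of 0.05 in the fit over all genes (limma, Benjamini-Hochberg), where 0.775% of all genes did. That gene was Pla2g4c, so the count follows from its selection and is not a result about the family. The deficient and control arrays did not overlap for Pla2g4c, which was lower, and for Pla2g12b, which was higher, against 22.7% of all genes. The other 5 genes had overlapping groups. The median difference over the 7 genes was -0.03, beside 0.02 over all genes. Of the 11 probe sets, 1 passed (0.398% of all 34945 did), again of the selected Pla2g4c. Groups did not overlap for 2 of the 11 (21.1% of all), and the median difference was 0.05.

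The arrays were checked before the genes were compared. The list of 9 epithelial markers (Epcam, Cdh1, Vil1, keratins and others) had a summed level of 15.83 to 15.91 in the controls and 15.95 to 16.04 in the deficient arrays on the log2 scale. The Gapdh control probe sets, whose 3′ minus 5′ difference rises as RNA degrades, gave 0.68, 0.93 and 0.22 for control replicates 1 to 3, against 0.21 to 0.29 for the deficient arrays. The poly-A control probe sets averaged 9.20, 8.88 and 8.43 for control replicates 1 to 3 and 8.17, 8.08 and 7.52 for the deficient replicates. Every deficient array thus lay below every control on them, and the part of this technical difference in the results was not tested. Casp8 itself had 1 probe set, which gave 10.53, 9.74 and 10.24 among the controls, while the deficient arrays gave 9.27, 9.56 and 10.40 (difference -0.43, SE 0.31, limma adjusted p = 0.518). Deficient replicate 1 stood apart on endothelial markers, with a summed level of 10.65 for 10 genes against 7.85 to 8.14 in the controls and 8.03 to 8.07 in the other deficient arrays. Without that array the differences of Pla2g4c and Pla2g12b, described next, were -4.07 and 0.60. The labels do not say which part of the gene was removed, so this probe set cannot check the genotypes.

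Pla2g4c encodes cytosolic phospholipase A2 gamma, a group IV enzyme that lacks the calcium-binding C2 domain of its relatives and sits on membranes. Its RefSeq gene (GRCm38.p6) lies on chromosome 7, beside a pseudogene copy, Pla2g4c-ps, and the table of start sites gives it 2 starts. The 250 bases before each are shown because this gene has the large difference in the family, and those of Pla2g12b because its groups separated in the other direction. Capitals mark matches on either strand to CCAAT (the CCAAT box), TATAAA (the TATA box), AAAGTCCA (an element of the nuclear receptor HNF4), AGATAA (bound by GATA factors) or TGANTCA (AP-1).
Pla2g4c first start, chr7:13325417-13325666, plus strand: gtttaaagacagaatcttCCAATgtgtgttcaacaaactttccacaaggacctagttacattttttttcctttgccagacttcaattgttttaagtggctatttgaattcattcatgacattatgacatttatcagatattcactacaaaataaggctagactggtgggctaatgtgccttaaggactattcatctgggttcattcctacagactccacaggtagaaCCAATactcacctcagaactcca
Pla2g4c second start, chr7:13329072-13329321, plus strand: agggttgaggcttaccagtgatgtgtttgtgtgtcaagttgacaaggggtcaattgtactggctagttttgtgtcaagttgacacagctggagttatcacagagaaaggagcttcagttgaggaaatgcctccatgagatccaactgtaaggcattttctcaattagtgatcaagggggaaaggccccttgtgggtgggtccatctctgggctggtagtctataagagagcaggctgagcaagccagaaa
Pla2g12b, chr10:59403435-59403684, plus strand: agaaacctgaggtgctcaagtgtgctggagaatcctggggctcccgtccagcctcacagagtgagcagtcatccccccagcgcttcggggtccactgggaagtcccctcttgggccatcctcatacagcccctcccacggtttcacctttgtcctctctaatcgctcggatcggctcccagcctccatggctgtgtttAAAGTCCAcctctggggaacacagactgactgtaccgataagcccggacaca

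The first Pla2g4c window held CCAAT at 2 places, 227 and 18 bases from the start, and the second held none of the 5 motifs. The Pla2g12b window held AAAGTCCA 44 bases before the start. Over all 32851 windows of that length, 33.8% held CCAAT, 12.4% TATAAA, 1.01% AAAGTCCA, 9.99% AGATAA and 6.75% TGANTCA. All 7 genes had a window, 9 in all. The Pla2g15 window also held the HNF4 letters, on the opposite strand and 201 bases from its start. The G and C content was 37.2% and 47.6% in the Pla2g4c windows and 58.8% in that of Pla2g12b, beside a median of 52.4% over all windows. These are letter matches in a fixed window and no binding was measured.

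The brighter Pla2g4c probe set, 1436712_at, gave 8.26, 7.57 and 8.92 for control replicates 1 to 3 and 4.39, 4.04 and 4.32 for the deficient replicates in the same order. Every deficient array lay far below every control, with 3.18 between the lowest control and the highest deficient array. The means were 8.25 ± 0.67 and 4.25 ± 0.18 (SD, n = 3), a difference of -3.999 (SE 0.30). The deficient values lay below the array medians of 4.85 to 4.91, and no detection call was used to tell them from background, so the fall is given as a difference of deposited values and not as a fold. This was the largest of all falls among the 18193 genes, each by its brightest probe set. In RNA of whole cell preparations, fewer cells of a type and less RNA per cell cannot be told apart.

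The second Pla2g4c probe set, 1444662_at, measured 4.54, 3.79 and 4.78 for the controls and 3.86, 4.004 and 3.86 for the deficient arrays. Control replicate 2 lay below all 3 deficient arrays, so the groups overlapped, while the other controls lay above them. The difference was -0.46 (SE 0.24), with means of 4.37 ± 0.51 and 3.91 ± 0.08. Both probe sets ordered the controls alike, with replicate 3 highest and replicate 2 lowest: relative to the control mean they stood at 0.01, -0.68 and 0.67 on the first and 0.17, -0.58 and 0.41 on the second. In the deficient arrays the first stood at -4.21 to -3.86 and the second at -0.51 to -0.37. The second probe set thus varied among the controls nearly as much as the first (SD 0.51 and 0.67), yet showed a far smaller step between the groups. Its values lay below the array medians of 4.85 to 4.91 on the control arrays too, and no detection call was used to tell them from background. Deficient replicates 1 and 3 had the identical deposited value on it. As the mean of both probe sets the difference of Pla2g4c was -2.23, which ranked 10 of 18193 from the largest fall.

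**Figure D1:**
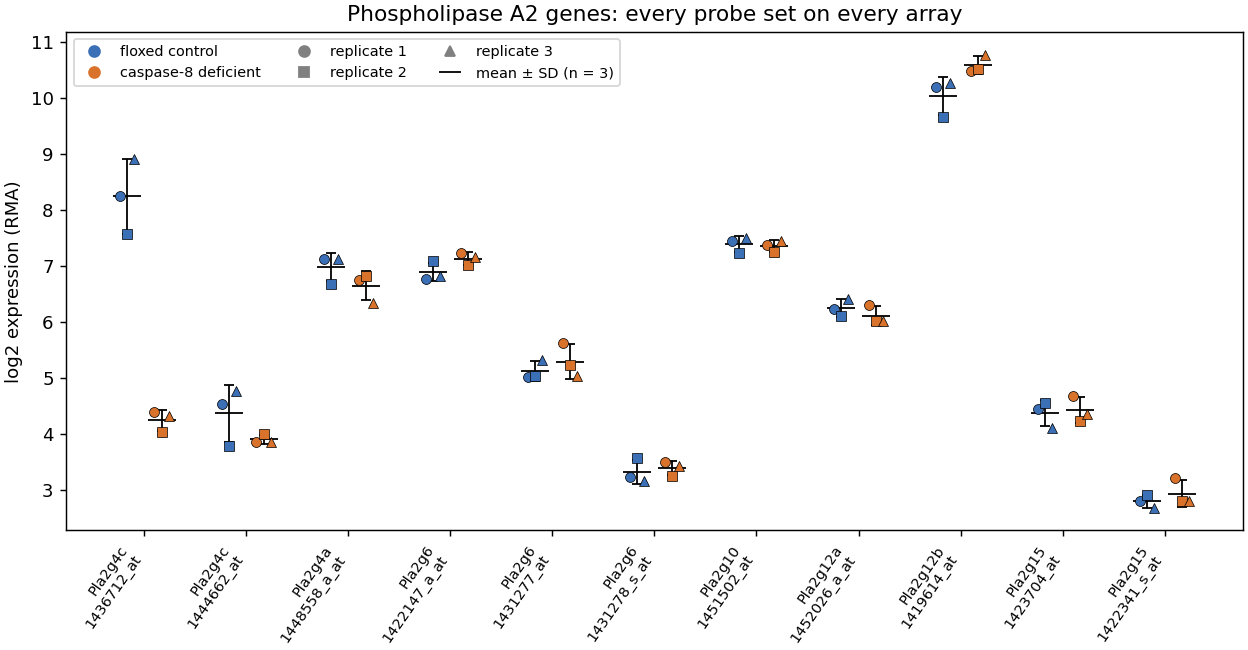
Log2 expression (vertical axis) of each of the 11 probe sets of the 7 phospholipase A2 genes on the 3 floxed control and 3 caspase-8 deficient arrays; marker shape gives the replicate, and the horizontal bar and whiskers the mean ± SD (n = 3). The brighter Pla2g4c probe set drops from 7.57 to 8.92 in the controls to 4.04 to 4.39 in the deficient arrays, while the groups lie close together for the others.

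When each array was left out in turn, the difference of Pla2g4c ran from -4.34 to -3.66. It was -4.64 with the Gapdh 3′ minus 5′ difference as a covariate and -4.67 against control replicate 3 alone, and the second probe set then stood at -0.93 and -0.87. Markers of several other cell types were lower as well. Here a gene fell or rose if it passed limma at an adjusted p under 0.05, where 0.467% of all genes fell and 0.308% rose. Of 6 measured Paneth cell genes (Lyz1, Mmp7, Ang4, Itln1, Pla2g2a and Nupr1) all 6 fell, and their summed level was 14.99 to 15.19 in the controls and 13.10 to 13.43 in the deficient arrays. Of 10 goblet cell genes 4 fell (Muc2, Spink4, Clca1 and Ccl6), with a summed level of 15.70 to 15.88 against 15.03 to 15.22. Of 7 stem cell genes Lgr5 fell (adjusted p = 0.0488, limma), with a summed level of 12.32 to 12.41 against 11.69 to 12.11. That sum mostly follows Olfm4, the brightest of them, with means of 11.99 in the controls and 11.60 in the deficient arrays (adjusted p = 0.241, limma). Lgr5 had means of 7.33 and 5.71. Of 9 enteroendocrine genes Gcg fell (adjusted p = 0.0183, limma), while the summed levels overlapped, at 12.69 to 13.09 and 12.58 to 12.75. Of 9 mast cell genes Kit fell (adjusted p = 0.0415, limma), while 6 of the 9 had differences above 0 (median 0.185). In the lists of tuft cells, T cells, and B and plasma cells, 0 genes fell and 0 rose. Of 9 myeloid genes 1 fell (Lyz2) and 1 rose (Mrc1), and 5 of the 9 had differences above 0 (median 0.08). Their summed level was 10.33 to 10.61 against 9.63 to 9.75. That sum includes Lyz2, the brightest of them, with means of 9.87 in the controls and 8.33 in the deficient arrays. No marker can be at 0 on this scale. Their part in the Pla2g4c result was not tested.

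Pla2g4a encodes cytosolic phospholipase A2 alpha, the calcium-activated enzyme that prefers arachidonic acid and feeds prostaglandin and leukotriene synthesis. Its probe set gave 7.13, 6.69 and 7.13 among the controls, while the deficient arrays gave 6.76, 6.83 and 6.35. Control replicate 2 lay below 2 of the deficient arrays, and the groups overlapped. The difference was -0.33 (SE 0.18), with means of 6.98 ± 0.25 and 6.65 ± 0.26. The 2 group IV members were therefore both lower in the mean, by -3.999 and -0.33, but only the brighter Pla2g4c probe set separated the groups.

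Pla2g6 encodes the calcium-independent enzyme, an ankyrin-repeat protein of membrane upkeep. Its brightest probe set, 1422147_a_at, measured 6.78, 7.09 and 6.83 for the controls and 7.23, 7.01 and 7.17 for the deficient arrays. Control replicate 2 reached into the deficient range. The difference was 0.24 (SE 0.13), and the other probe sets stood at 0.17 (SE 0.18) and 0.06 (SE 0.14), all with overlapping groups.

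Pla2g10 encodes a secreted enzyme of high activity towards phosphatidylcholine. It gave 7.44, 7.23 and 7.51 among the controls, while the deficient arrays gave 7.38, 7.25 and 7.46, an almost complete overlap. The difference was -0.03 (SE 0.13), and it changed sign in 3 of 16 alternative settings.

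The group XII genes went different ways. Pla2g12a, a secreted enzyme, measured 6.23, 6.11 and 6.42 for the controls and 6.30, 6.02 and 6.01 for the deficient arrays (difference -0.14, SE 0.14), with overlapping groups. Pla2g12b, a related protein without a working catalytic site that takes part in the secretion of lipoproteins, gave 10.20, 9.66 and 10.27 among the controls, while the deficient arrays gave 10.49, 10.52 and 10.77. All 3 deficient arrays lay above all 3 controls, by 0.22 at the closest. The means were 10.04 ± 0.34 and 10.59 ± 0.16, a difference of 0.55 (SE 0.18), or 1.46-fold. Control replicate 2 stood apart from the other controls, and without it the difference was 0.36; with the Gapdh difference as a covariate it was 0.27. The summed level of 12 genes listed as enterocyte markers was 16.10 to 16.24 in the controls and 16.38 to 16.41 in the deficient arrays. Its part in the Pla2g12b result was not tested. Among the 12 was Pdgfb, a growth factor gene matched through the synonym Sis, with means of 4.58 (controls) and 4.63 (deficient arrays).

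Pla2g15, the lysosomal phospholipase, was dim on both of its probe sets. The brighter, 1423704_at, measured 4.45, 4.56 and 4.11 for the controls and 4.68, 4.24 and 4.35 for the deficient arrays (difference 0.05, SE 0.17). The other, 1422341_s_at, read 2.80, 2.91 and 2.68 against 3.22, 2.80 and 2.80 (difference 0.14, SE 0.15), with control replicate 1 and deficient replicates 2 and 3 at the identical value. Both had overlapping groups.

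**Figure D2:**
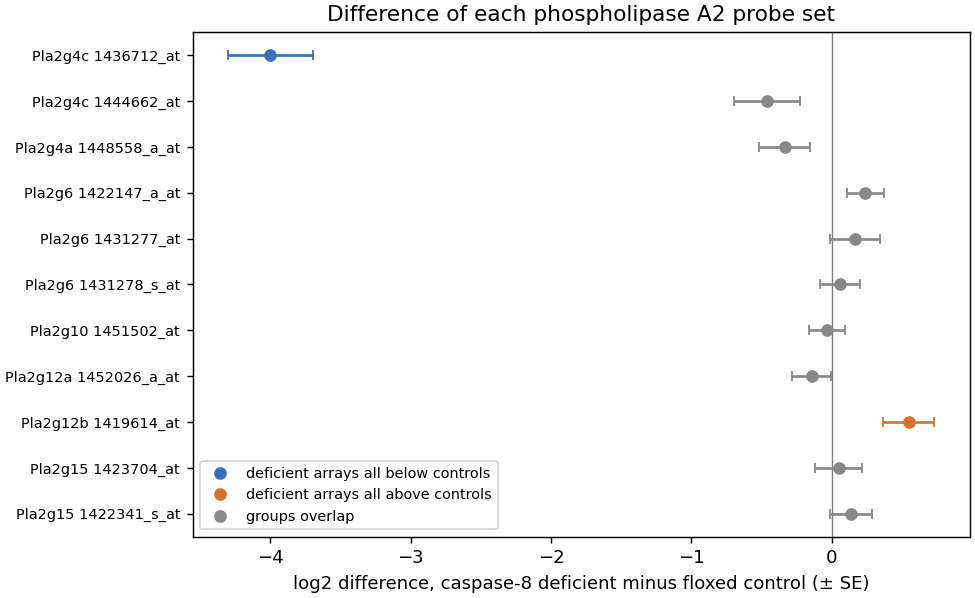
Log2 difference, caspase-8 deficient minus floxed control, with its SE, for the 11 probe sets; colour shows whether the 3 arrays of each group overlapped. The brighter Pla2g4c probe set stands at -3.999, and the other 10 lie between -0.46 (the second Pla2g4c probe set) and 0.55 (Pla2g12b).

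The genes nearest to Pla2g4c in profile were found by centring each gene on its mean over the 6 arrays. The root mean square difference from the brighter Pla2g4c probe set was then taken. Genes with provisional names, ending in Rik or starting with Gm and a digit, were skipped. The measure follows the size of the step between the groups, so it returns genes with large falls. The nearest was the mucosal pentraxin Mptx1, at 0.45, falling from 10.86, 10.24 and 10.99 to 7.69, 7.39 and 7.36. The colipase gene Clps, whose product anchors pancreatic lipase on fat droplets, followed at 0.52, the angiogenin Ang4 of Paneth cells at 0.64, the gasdermin Gsdmc2 at 0.83 and the stress regulator Nupr1 at 0.94. The median over all genes kept was 2.05. Mptx1, Clps and Ang4 ordered the 3 controls as Pla2g4c did, with replicate 3 highest and replicate 2 lowest, and Gsdmc2 and Nupr1 did not. The controls entered the measure that chose these genes, so a shared order is not separate evidence of likeness.

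**Figure D3:**
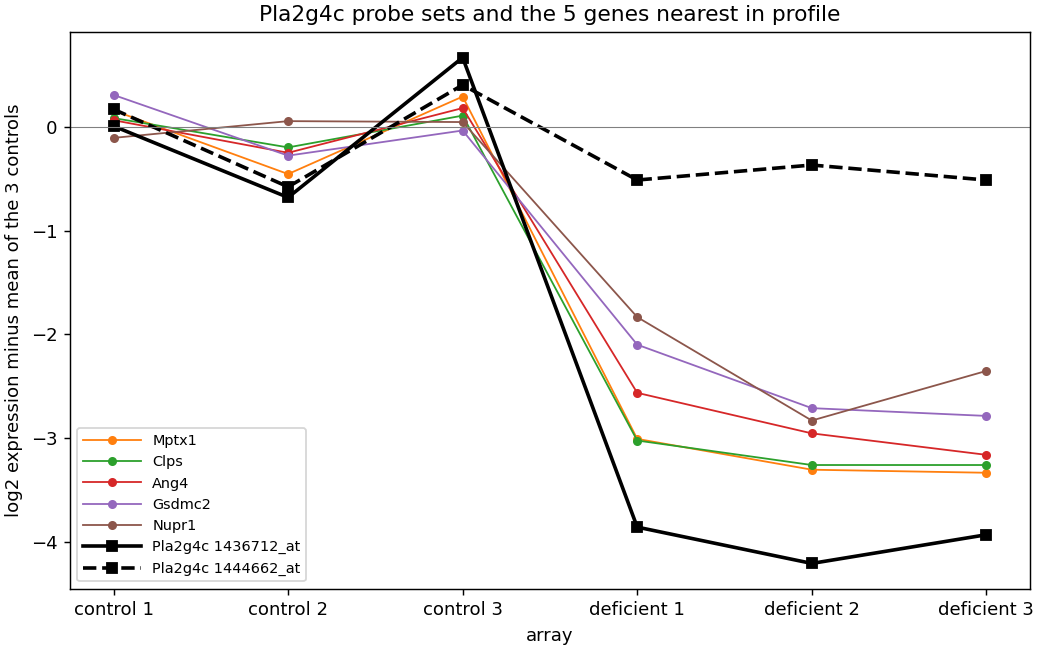
Log2 expression minus the mean of the 3 controls (vertical axis) on each array for both Pla2g4c probe sets (black; solid for 1436712_at, dashed for 1444662_at) and the 5 genes nearest to the brighter one in profile; the lines only join the points of one gene. The brighter Pla2g4c probe set stands at -4.21 to -3.86 in the deficient arrays, below the 5 genes, and the second probe set at -0.51 to -0.37. Genes with provisional names were skipped in choosing the 5.

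Genes that act with or beside phospholipase A2 were grouped into 6 lists of 154 measured genes in all, without the 7 above. Of these, 3 rose and 1 fell in the deficient cells and 150 did not pass (limma, adjusted p under 0.05), where 0.308% of all genes rose and 0.467% fell. At an unadjusted p under 0.05 there were 43 of the 154, beside 16.6% of all genes (3029 of 18193), the share against which the unadjusted counts of the single lists are to be read. The median difference of the 154 was 0.09, beside 0.02 over all genes.

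Of 25 other phospholipase A2 and related genes, 1 fell, 0 rose and 24 did not pass (median 0.13). Pla2g2a fell, from 8.24, 7.69 and 8.60 in the controls to 6.23, 6.54 and 6.09, with no overlap (difference -1.89, SE 0.23, 3.71-fold lower, limma adjusted p = 0.0183). RefSeq lists it as a transcribed pseudogene in this strain, so the probe set reports a transcript without an intact enzyme. Its call was lost without control replicate 1 (adjusted p = 0.0976) or deficient replicates 2 (0.0798) or 3 (0.094), with differences of -2.02 to -1.79. It was lost without control replicates 1 and 2 as well (-2.31, adjusted p = 0.192), and was kept with the Gapdh covariate (-2.34, adjusted p = 0.0181). Pafah1b1, a partner of the enzyme that breaks down platelet-activating factor, stood at 0.44, the lipid hydrolase Abhd4 at 0.43 and the triglyceride lipase Pnpla2 at 0.35 without passing. The other 4 Pafah1b1 probe sets stood between -0.05 and 0.11. The secreted Pla2g5, named here after its values were seen, stood at -0.63 (SE 0.22) with overlapping groups.

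Of 27 genes of eicosanoid synthesis and breakdown, limma called 0, with 9 at an unadjusted p under 0.05 (median 0.10). Ptgr1, which inactivates prostaglandins and leukotriene B4, stood at 0.86 (adjusted p = 0.0725), and the 5-lipoxygenase Alox5, which starts leukotriene synthesis, at -0.71 (adjusted p = 0.0742). The 12-lipoxygenase Alox12 stood at 0.66, and at 0.19 by its second probe set. Cyp4f14, of a family that oxidises leukotriene B4, stood at 0.49. Ptgs2, the inducible cyclooxygenase, named after its values were seen, was dim and gave 3.84, 3.98 and 4.57 among the controls, while the deficient arrays gave 3.41, 3.55 and 3.21 (difference -0.74, SE 0.20, adjusted p = 0.144). Alox5ap, which presents arachidonic acid to the 5-lipoxygenase and was also named after its values were seen, stood at -0.90 (adjusted p = 0.146) and passed with the Gapdh covariate (-1.41, adjusted p = 0.0487).

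Of 22 receptors and transporters of eicosanoids and lysophospholipids, limma called 0, with 2 at an unadjusted p under 0.05 (median 0.16). That was no larger a share than among all genes. The pair were the leukotriene B4 receptor Ltb4r1, at 0.58 (adjusted p = 0.109), and the prostaglandin E2 receptor Ptger4, at 0.63 (adjusted p = 0.167) and 1.14 by its second probe set. For both, the 3 deficient arrays lay above the 3 controls. The lysophosphatidic acid receptors Lpar2 and Lpar6 stood at 0.29 and -0.23.

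Of 29 genes of phospholipid remodelling, 1 rose, 0 fell and 28 did not pass (median 0.11). The list holds enzymes that put a fatty acid back on the lysophospholipid that phospholipase A2 leaves. It also holds enzymes that activate fatty acids or break lysophospholipids and their products down. The lysophospholipid acyltransferase Mboat1 rose, from 7.81, 7.99 and 8.01 to 8.78, 9.13 and 9.24 (difference 1.11, SE 0.15, 2.16-fold higher, limma adjusted p = 0.0247), with 0.81 on its second probe set. The call was lost without each control in turn or deficient replicate 2 or 3, at adjusted p = 0.0638 to 0.133, with differences of 1.01 to 1.15, and with the Gapdh 3′ minus 5′ difference as a covariate (1.05, adjusted p = 0.2). Without control replicates 1 and 2 it was lost too (adjusted p = 0.632). The acyl-CoA synthetase Acsl3, which activates long-chain fatty acids, stood at 1.10 (adjusted p = 0.0758), and at 1.24 and 0.65 by its other probe sets. The lysoplasmalogenase Tmem86a stood at 0.63 and the brush border phospholipase Plb1 at -0.64 (limma adjusted p = 0.0725 and 0.0892). The other Plb1 probe sets stood between -0.73 and 0.01.

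Of 32 phospholipases of other kinds and related lipases, limma called 0, with 9 at an unadjusted p under 0.05 (median -0.13). The diacylglycerol lipase Dagla stood at -0.69, the phospholipase A1 Ddhd1 at 0.44, and the phospholipases C Plch2 and Plce1 at -0.79 and -0.53. The other Ddhd1 probe sets stood between -0.04 and 0.21, and the second Plch2 probe set at 0.26.

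Of 19 genes that regulate cytosolic phospholipase A2 or bind its membrane substrate, 2 rose, 0 fell and 17 did not pass (median 0.02). The 17, and so the 150 counted above over all lists, include Casp8, the targeted gene, at -0.43. Both that rose were annexins, proteins that bind phospholipids in the presence of calcium. Annexin A1, encoded by Anxa1 and known as an inhibitor of phospholipase A2 activity, measured 4.92, 4.31 and 6.11 for the controls and 7.85, 8.15 and 8.15 for the deficient arrays (difference 2.94, SE 0.39, limma adjusted p = 0.0247). The other Anxa1 probe set gave 0.49. Anxa5 read 7.84, 8.04 and 8.14 against 9.30, 9.90 and 9.54 (difference 1.57, SE 0.17, limma adjusted p = 0.0107). Both calls were lost without control replicate 1 or 2 or deficient replicate 3, and that of Anxa1 also without deficient replicate 2, at adjusted p = 0.0684 to 0.133. Against control replicate 3 alone, the highest of the controls on Anxa1, its difference was 1.94 (adjusted p = 0.192) and that of Anxa5 1.44 (0.519). With the Gapdh covariate Anxa1 stood at 2.005 (adjusted p = 0.0115), and the call of Anxa5 was lost (1.47, adjusted p = 0.128). Anxa2 stood at 0.43 and the stress kinase Mapk8 at 0.55 without passing.

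**Figure D4:**
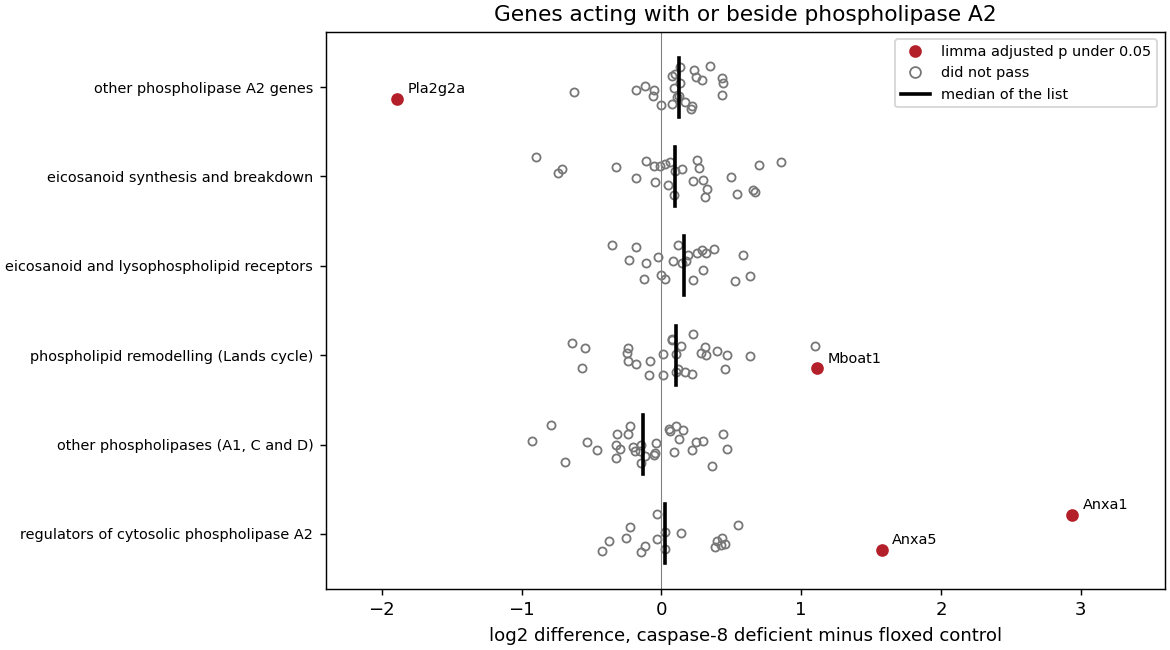
Log2 difference, caspase-8 deficient minus floxed control, of the measured genes of 6 lists (one open or filled point a gene, spread vertically only to part them); filled points passed limma at an adjusted p under 0.05 and the bar is the median of the list. Pla2g2a is the filled point below 0, and Mboat1, Anxa5 and Anxa1 are those above it.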

How the data were processed

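Biotin-labelled cRNA from 2 ug total RNA was hybridised to Affymetrix 3′ arrays, per the labels' protocols. The authors deposited log2 expression values made with RMA, which corrects background, equalises the arrays and summarises probes, per the submitters' processing notes. For RMA no version was given in the sources used here. The values ran from 1.13 to 14.1 (array medians 4.85 to 4.91). RMA compresses dim signals, no detection calls were used, and the 6 arrays limit the precision.

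The platform annotation names 1 gene for 34945 of 45101 probe sets, several for 932 and none for 9160 (64 were controls); 34741 of the first were in the RefSeq gene table. A gene was represented by its brightest probe set (18193 genes). Deficient minus control was fitted with limma 3.58.1 (R 4.3.3; lmFit, eBayes, group only, two-sided), over genes and again over all 34945 probe sets, from which the members' SEs come. P-values were adjusted by Benjamini-Hochberg. They set the difference between groups against the spread between arrays within a group, moderated across genes. The labels call these replicates biological. In simulated data (18193 genes, 10 draws, 200 genes changed), 64.8% of changes of 1 and 96.2% of 2 (log2) were recovered, with 4.33% false calls. The values were drawn independently from normal distributions at each gene's mean and SD, without differences in quality between arrays. These rates hold for that setting only and cannot be carried over to the real arrays.

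The members and lists were chosen with earlier results of these data known. The named genes are every member, up to 4 of smallest p per list, the 5 nearest to Pla2g4c, and Casp8; exceptions are marked. A summed level is the log2 of a list's summed linear values on an array. Promoter letters are RefSeq's. Figures used matplotlib 3.10.9, and tables Python 3.11.15, pandas 2.3.3 and numpy 2.4.6.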

Additional observations from a re-analysis of the deposited data

How the results depend on the processing

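The 141 genes and 139 probe sets called became 298 and 362 among those above the median level, 252 and 250 with a variance trend and robust prior, 1406 and 1631 with array weights, 36 and 23 with the Gapdh covariate, and 5 and 3 without control replicates 1 and 2. Leaving out 1 array gave 18 to 251 genes and 19 to 291 probe sets. The 4 pathway genes called became 8 above the median level, 8 with the trend, 28 with array weights, 3 with the Gapdh covariate (1 higher, Anxa1, and 2 lower, Pla2g2a and Alox5ap, so that Mboat1 and Anxa5 were not called) and 0 without control replicates 1 and 2 (21 at an unadjusted p under 0.05, limma). Leaving out 1 array gave 0 to 6 (37 to 46 unadjusted of 154, beside 2149 to 3193 of all 18193 genes), with 0 without control replicate 1 or deficient replicate 3 and 1 without control replicate 2 or deficient replicate 2. Pla2g4c moved to -2.23 as the mean of its probe sets, -4.64 with the Gapdh covariate and -4.67 without control replicates 1 and 2, and lay between -4.34 and -3.66 when 1 array was left out. It kept its sign in 16 of 16 alternatives, and ranked 3 from the largest fall with the Gapdh covariate and without control replicates 1 and 2. With the replicate number as a block, 113 genes and 4 pathway genes were called and the difference of Pla2g4c was -3.999. Same-numbered arrays deviated together with correlations of 0.08, 0.10 and -0.01, so the numbers were not taken to pair the animals.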

Other observations

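The 3 measured genes on each side of Pla2g4c in the RefSeq gene order (GRCm38.p6) were set beside it, a choice made after its values were seen. Lig1, the DNA ligase of replication and the nearest of them before it, stood at -0.70 (SE 0.15, limma adjusted p = 0.0788), from 9.03, 9.25 and 8.81 to 8.44, 8.37 and 8.18. The other 5, Mzf1, Zswim9, Cabp5, Sult2a2 and Sult2a8, stood between -0.02 and 0.09, with overlapping groups.

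Of the 11 probe sets, 3 held a value repeated exactly on several arrays, 1 each of Pla2g4c, Pla2g6 and Pla2g15. Over all 34945 probe sets 23.4% did, 33.3% of those with a mean at or below the median and 13.4% of those above it. Control replicate 2 was the lowest or the highest of the 3 controls on 10 of the 11 probe sets, against 73.5% of all probe sets, and control replicate 3 also on 10, against 65.2%.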
